A study of Mus musculus with 6 samples.

Results

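Guanylate-binding proteins (GBPs) and immunity-related GTPases (IRGs) are GTP-binding proteins of the mouse that interferons induce in almost any cell. Interferon gamma signals through a receptor and its kinases to promoter elements called gamma-activated sites (GAS), while interferon regulatory factors bind interferon-stimulated response elements (ISRE). GBPs and the effector IRGs gather on vacuoles that hold intracellular pathogens and break them open, and the regulatory IRGs keep the effectors off the cell's own membranes. The genes described are 10 such GTPases, taken by symbol from a list of their names, out of 55487 gene IDs in the deposited count table. They are 4 GBPs (Gbp2, Gbp3, Gbp5 and Gbp7), 3 regulatory IRGs (Irgm1, Irgm2 and Igtp) and 3 effector IRGs (Iigp1, Tgtp1 and Ifi47).

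Sequencing gave their RNA levels in 6 whole grafts grown in the tongue from B16F10 cells, a pigmented melanoma line of C57BL/6J origin. The 3 inhibition grafts came from C57BL/6J mice, labelled wild type, whose neck lymph node nerves were to be silenced by hM4D(Gi)-mCherry, an inhibitory designer receptor fused to a red fluorescent protein. The receptor was carried by AAV2/retro, a vector that travels backwards along axons, and was driven by Trpv1 sequence, Trpv1 being a channel of nociceptive nerves. The 3 control grafts came from the same kind of mice, labelled vehicle-treated, whereas the design text gives AAV2/retro-Trpv1-mCherry without the receptor as the comparison vector and describes deschloroclozapine, the receptor's ligand, for all mice. What the controls received is therefore unclear. The vector preceded the tumour cells by 6 weeks, and the ligand was given 2 times per day for 12 days. Whether each graft came from its own mouse is not stated, so the p-values reflect the spread between these samples, which may be technical.

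The libraries held 14477277 to 20972494 counts in the inhibition grafts and 15420091 to 20914180 in the control grafts. Melanoma genes such as Pmel and Tyrp1 were abundant in all of them, 10 such genes summing to 30584 to 35697 CPM (counts scaled to library size) in inhibition grafts and 23663 to 31519 CPM in control grafts. The receptor, the fluorescent protein and the nerves themselves were not measured.

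The promoters of the members share sequence motifs of the kind that interferon-activated factors bind. RefSeq windows (GRCm38.p6; 250 bases before to 50 after each annotated start) were found for 9 of the 10 members, all but Iigp1. They were searched for a GAS-type motif (TTCNNNGAA, which reads the same on both strands) and an ISRE-type motif (GAAANNGAAA, or TTTCNNTTTC on the other strand). The ISRE-type motif was present in 8 of the 9 members (88.9%), against 3.99% of 27025 genes with a window, and both motifs together in 5 (55.6%), against 0.540% of all genes. In 3 members the GAS-type motif was followed, after exactly 2 bases, by the ISRE-type motif, an arrangement found in 5 genes in all, Igtp, Irgm2, Tgtp1, its near copy Tgtp2, and Gm12185, whose exons overlap those of Tgtp1. The letters around the pair are also nearly the same in Igtp and Irgm2, so the members are not independent cases in these shares. Overlapping matches were kept. The GAS-type motif was in 5 of the 9 members, against 9.55% of all genes, and Ifi47 held neither set of letters in this window. RefSeq starts can differ from the GENCODE gene spans given with the positions. Of the 120 bases before the RefSeq start, 120 for Irgm1, 61 for Gbp2 and 12 for Tgtp1 were annotated as exon. The printed motifs of Irgm1, Irgm2, Tgtp1 and Gbp2 lie within the GENCODE spans of their genes. The motif matches are letters only, and binding was not measured.

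The 3 paired sites are shown first because they carry the shared arrangement, with motifs in capitals and all sequences read 5′ to 3′ on the gene's strand. The Igtp stretch is chr11:58199436-58199555 (plus strand), the Irgm2 stretch chr11:58214857-58214976 (plus) and the Tgtp1 stretch chr11:48992309-48992338 (minus).
Igtp: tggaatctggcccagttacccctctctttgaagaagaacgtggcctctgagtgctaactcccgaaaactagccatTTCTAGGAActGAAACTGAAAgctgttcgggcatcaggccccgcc
Irgm2: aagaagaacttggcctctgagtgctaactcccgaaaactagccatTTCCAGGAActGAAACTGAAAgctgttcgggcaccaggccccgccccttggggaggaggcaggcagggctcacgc
Tgtp1: ccatTTCCAGGAAtcGAAACTGAAAcctac

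The next sites show other layouts: 2 GAS-type motifs and an ISRE-type motif apart from each other in Gbp7 (chr3:142530216-142530335, plus), a single ISRE-type motif in Gbp2 (chr3:142620589-142620618, plus), and overlapping ISRE-type motifs in Irgm1 (chr11:48871430-48871459, minus).
Gbp7: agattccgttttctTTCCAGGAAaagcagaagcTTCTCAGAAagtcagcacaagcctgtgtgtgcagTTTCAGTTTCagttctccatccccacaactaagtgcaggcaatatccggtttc
Gbp2: taggaactcttttagTTTCACTTTCactgt
Irgm1: ctgtttcaaGAAATAGAAACCGAAActgat

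**Figure D1:**
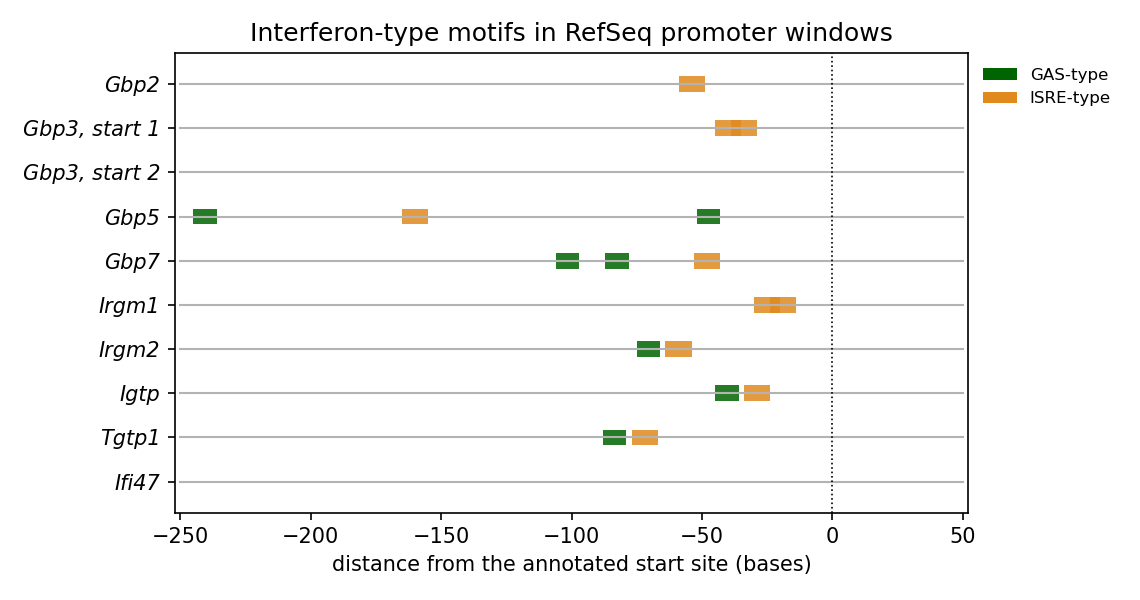
Positions of GAS-type (green) and ISRE-type (orange) motifs in the RefSeq promoter windows of 9 members, in bases from the annotated start (dotted line); Gbp3 has 2 annotated starts. Igtp, Irgm2 and Tgtp1 show the GAS-type motif directly before the ISRE-type motif.

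On GRCm38 the GBP members lie in 1 cluster on chromosome 3: Gbp5 (ENSMUSG00000105504) from 142493978 to 142522344, Gbp7 (ENSMUSG00000040253) from 142530342 to 142550149, Gbp3 (ENSMUSG00000028268) from 142560026 to 142573209 and Gbp2 (ENSMUSG00000028270) from 142620602 to 142638008. Chromosome 11 holds Irgm1 (ENSMUSG00000046879) from 48861968 to 48871683, Tgtp1 (ENSMUSG00000078922) from 48985327 to 48994172, Ifi47 (ENSMUSG00000078920) from 49076587 to 49096974, Igtp (ENSMUSG00000078853) from 58199556 to 58207591 and Irgm2 (ENSMUSG00000069874) from 58199618 to 58222782. Iigp1 (ENSMUSG00000054072) is on chromosome 18. All 10 are annotated as protein-coding. Reads of Tgtp1 could hardly be told from those of its neighbour: 89.4% of the 50-base windows of its transcript also occur in Tgtp2, so its value is uncertain. Igtp and Irgm2 share 162 exon bases, and 12.3% of the Igtp windows occur in Irgm2. In the other 7 members between 0.814% and 12.8% of the windows occur in another gene.

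All 10 members passed the filter on low counts, and none passed the test between the groups. Every member averaged less RNA in the inhibition grafts than in the control grafts, with log2 fold changes (inhibition over control) from -3.04 in Tgtp1 to -0.38 in Gbp3 and a median of -1.34 (-0.56 with limma-voom on the same libraries), while the median of all 15666 tested genes was 0.0049 and 49.0% of them were negative. The averages hid a wide split among the controls: control 2 was the highest of the 6 libraries in 10 of 10 members, and control 3 was the lowest in 9. The inhibition grafts lay between them, except inhibition 1 for Tgtp1, and were closer to each other than the control grafts were. In whole grafts, fewer cells that make these RNAs and less RNA per cell cannot be told apart.

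Gbp2, which coats pathogen vacuoles, stood at 11.7, 14.0 and 8.71 CPM in the inhibition grafts and at 39.6, 65.0 and 3.82 CPM in the control grafts. Control 1 and control 2 were above every inhibition graft and control 3 below all of them. Gbp7, linked in mouse macrophages to the oxidative killing of bacteria, stood at 10.8, 9.21 and 6.95 CPM in the inhibition grafts, against 12.7, 28.4 and 4.16 CPM in the control grafts. Gbp5, which promotes inflammasome assembly, stood at 2.24, 2.35 and 1.28 CPM in the inhibition grafts and 2.77, 5.13 and 0.822 CPM in the control grafts. In both, control 1 was only a little above the highest inhibition graft. Gbp3, their neighbour in the cluster, stood at 11.5, 12.1 and 5.85 CPM in the inhibition grafts and 12.0, 23.0 and 3.72 CPM in the control grafts, and it was the member in which control 1 fell within the range of the inhibition grafts.

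Among the regulatory IRGs, Irgm1, which guards the cell's own membranes, had the highest counts of any member, at 39.3, 35.3 and 26.5 CPM in the inhibition grafts and 76.5, 123 and 24.0 CPM in the control grafts. Igtp, also called Irgm3, stood at 7.42, 9.11 and 5.14 CPM in the inhibition grafts and 25.1, 45.7 and 3.53 CPM in the control grafts. In both genes 2 controls were far above the inhibition grafts and the third just below them. Irgm2, which in mouse macrophages restrains caspase-11, stood at 16.6, 15.9 and 9.14 CPM in the inhibition grafts, against 17.5, 38.9 and 5.90 CPM in the control grafts, so that only control 2 stood well apart on the high side.

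Among the effector IRGs, Iigp1, or Irga6, which is loaded onto parasite vacuoles, stood at 7.35, 10.1 and 5.66 CPM in the inhibition grafts and 24.1, 42.1 and 1.40 CPM in the control grafts. Tgtp1, or Irgb6, stood at 0.350, 1.23 and 0.523 CPM in the inhibition grafts, from 5, 24 and 11 counts, and at 5.54, 12.0 and 0.387 CPM in the control grafts, from 92, 185 and 8 counts. It was the member in which control 3 was not the lowest library, since inhibition 1 was. Ifi47, or Irgd, stood at 2.52, 3.74 and 1.76 CPM in the inhibition grafts and 8.62, 15.1 and 1.35 CPM in the control grafts, the same order of libraries as in Iigp1.

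**Figure D2:**
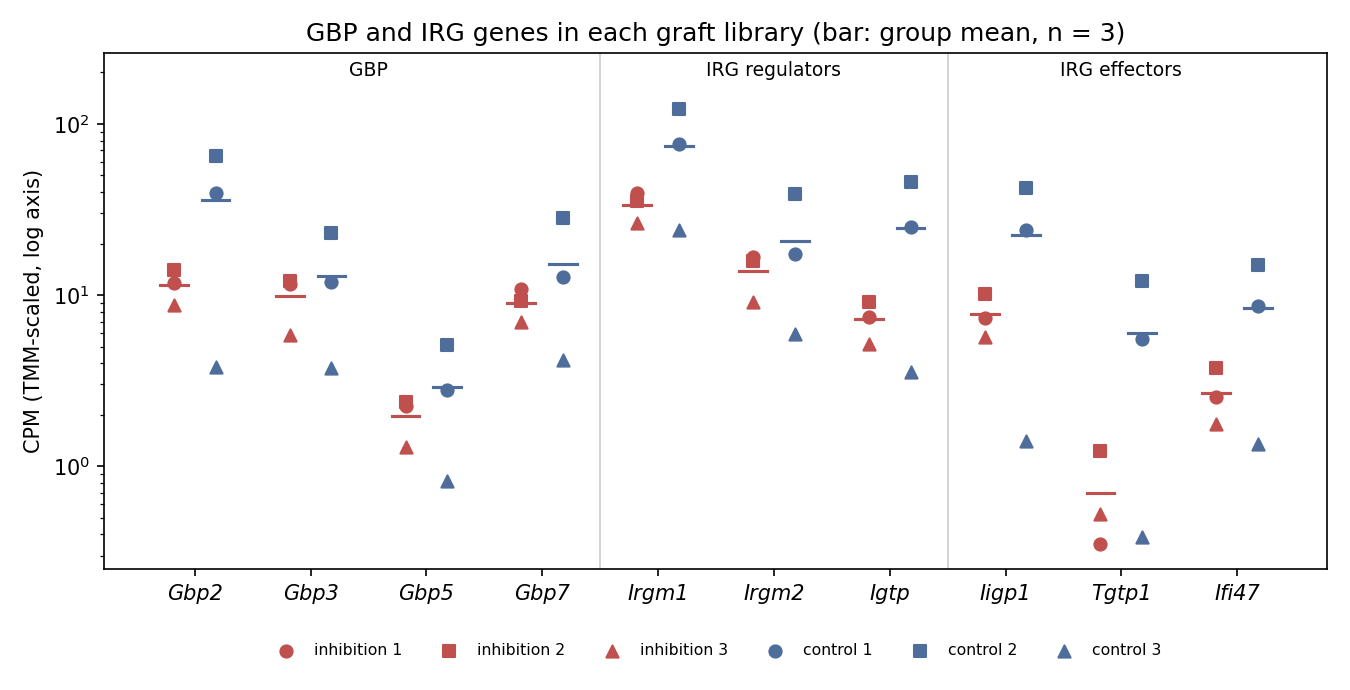
Level of each member in CPM (log axis) in the 3 inhibition libraries (red) and the 3 control libraries (blue), with a bar at each group mean; marker shapes give the replicate number. Control 2 (blue square) is the highest point of all 10 genes, and control 3 (blue triangle) the lowest of 9.

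The comparison asked whether silencing nerves of the draining nodes went with another level of these interferon-induced genes in the tumour graft. In edgeR's quasi-likelihood test with Benjamini-Hochberg adjustment over all genes, 0 of 10 members passed at an adjusted p under 0.05, where 0.0383% of all tested genes did (6 genes). DESeq2 also called 0 members, against 3.67% of all genes (1.30% lower and 2.37% higher in the inhibition grafts). At an unadjusted p under 0.05, 1 member was lower, against 7.00% of tested genes, and 0 were higher, against 8.36%. That member was Tgtp1 (0.701 ± 0.465 CPM in inhibition grafts and 5.98 ± 5.83 CPM in control grafts, SD, n = 3 each), with a log2 fold change of -3.04, a standard error of 1.20 and an edgeR adjusted p of 0.318. Igtp followed with 7.22 ± 1.99 CPM in inhibition grafts and 24.8 ± 21.1 CPM in control grafts (log2 fold change -1.77 ± 0.93, SE; adjusted p = 0.430), then Gbp2 with 11.5 ± 2.66 CPM in inhibition grafts and 36.2 ± 30.8 CPM in control grafts (-1.65 ± 0.99; 0.480). Ifi47 (-1.63 ± 0.84, adjusted p = 0.413), Iigp1 (-1.54 ± 1.11, 0.552), Irgm1 (-1.14 ± 0.63, 0.445) and Gbp7 (-0.74 ± 0.68, 0.643) lay between. The smallest differences were in Irgm2 (-0.58 ± 0.71, adjusted p = 0.734), Gbp5 (-0.56 ± 0.60, 0.683) and Gbp3 (-0.38 ± 0.68, 0.817). The groups overlapped in all 10 members, while they did not overlap, with inhibition lower, in 11.0% of all tested genes and, with inhibition higher, in 10.2%.

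These values rested on single control grafts. Without control 3, all 10 log2 fold changes were more negative (median -1.84), and 8 members were lower at an unadjusted p under 0.05, against 6.85% of tested genes. Even so, edgeR called 0 members lower, against 0.00% of tested genes, and the smallest adjusted p was 0.157, for Gbp2 and Tgtp1. Without control 2 the median was -0.66, 0 members were called lower (0.0307% of tested genes), 0 were lower at an unadjusted p under 0.05 (8.55% of tested genes), and Gbp3 (0.32), Irgm2 (0.24), Gbp5 (0.12) and Gbp7 (0.084) turned to positive log2 fold changes.

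**Figure D3:**
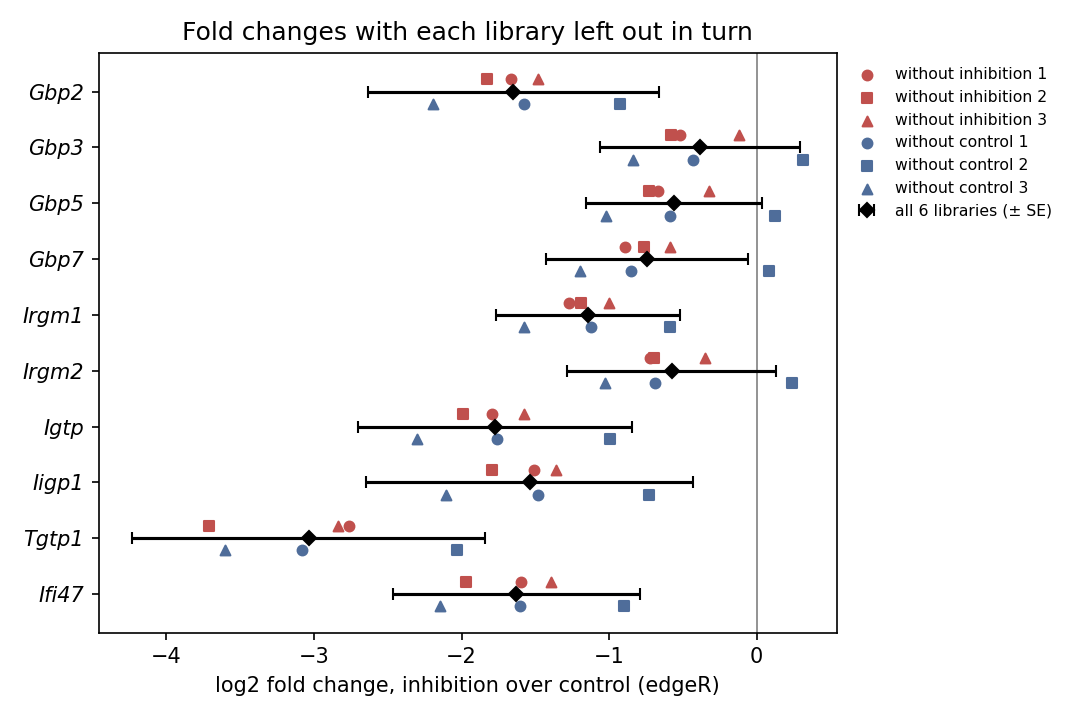
Log2 fold change (inhibition over control, edgeR) of each member with all 6 libraries (black diamond, bar = standard error) and with each library left out in turn (red, inhibition; blue, control). Leaving out control 3 (blue triangle) gives the most negative values in 9 genes, and leaving out control 2 (blue square) moves all 10 toward or past 0.

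The members differed far more among the control grafts than among the inhibition grafts. Between the highest and the lowest graft of a group, members differed by 1.48-fold (Irgm1) to 3.51-fold (Tgtp1) in the inhibition grafts and by 5.13-fold (Irgm1) to 31.1-fold (Tgtp1) in the control grafts. The SD of log2 CPM was larger in the control grafts for 10 of 10 members, as it was for 56.5% of all tested genes. This was not particular to the members. Of the lists below, it held for 10 of 10 other GBP and IRG genes and 21 of 24 other interferon gamma targets. It also held for 20 of 24 type I interferon genes and 10 of 10 endothelial markers, but for 5 of 14 autophagy genes and 5 of 12 epithelial markers. The median SD over the members was 0.43 in the inhibition grafts and 1.57 in the control grafts. Over all tested genes it was 0.14 in the inhibition grafts and 0.16 in the control grafts. The members' median was 0.61 in the control grafts without control 3, and 0.17 in the inhibition grafts without inhibition 3. Iigp1 had the largest control SD (2.57, exceeded by 0.0191% of tested genes) and Irgm1 the smallest among members (1.21, exceeded by 0.906%). In the inhibition grafts, 3.45% (for Tgtp1) to 23.0% (for Irgm1) of tested genes had a larger SD. The difference in spread between the groups was not tested.

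**Figure D4:**
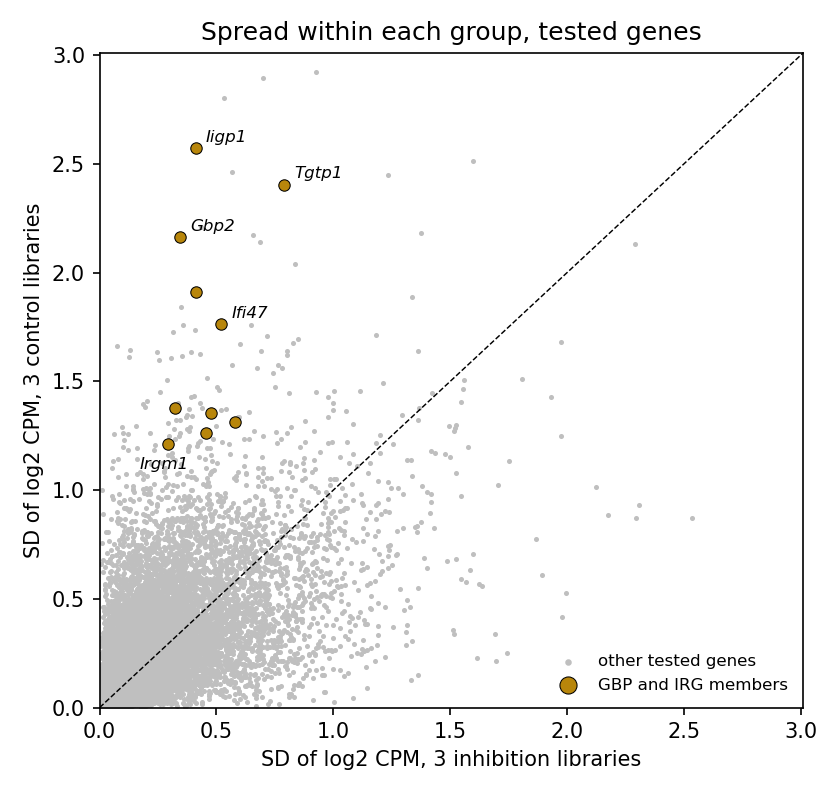
SD of log2 CPM over the 3 inhibition libraries (horizontal) and the 3 control libraries (vertical) for all tested genes (grey) and the members (gold); the dashed line marks equal spread. All 10 members lie above the line, from 1.21 to 2.57 on the control axis.

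The members moved together across the libraries. Over 45 pairs of members, Pearson's r of log2 CPM over the 6 libraries was between 0.761 (Gbp3 and Tgtp1) and 0.997, with a median of 0.94; the libraries are shared by all pairs, so this is a description. Control 2 exceeded control 1 by a narrow range, 1.61-fold (Irgm1) to 2.23-fold (Gbp7), but the members differed in how far control 1 stood above the inhibition mean. The ratio of control 1 to the inhibition mean was 1.22 in Gbp3, 1.26 in Irgm2, 1.41 in Gbp7 and 1.42 in Gbp5, and 2.27 in Irgm1, 3.13 in Iigp1, 3.22 in Ifi47, 3.45 in Gbp2, 3.48 in Igtp and 7.91 in Tgtp1. Of the members with paired motifs, Irgm2 was in the first set and Igtp and Tgtp1 in the second. Whether the motifs had a part in these ratios was not tested. Per length, in CPM per kilobase of exon, Irgm1 was highest in the inhibition grafts (5.80 ± 1.13, SD) and Gbp2 in the control grafts (14.4 ± 12.2). In the inhibition grafts, the order then ran Gbp2, Irgm2, Igtp, Gbp3, Gbp7, Iigp1, Ifi47, Gbp5 and Tgtp1 (0.219 ± 0.145), and neighbours were separated beyond their SDs only between Gbp3 and Gbp7 and between Ifi47 and Gbp5. In the control grafts, no members next to each other in that order were separated.

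Some relatives outside the 10 had a similar profile and others did not. Of 18 further GBP and IRG genes, 10 were tested, 7 of them with a negative and 3 with a positive log2 fold change (median -0.64); edgeR and DESeq2 called none (0), and before adjustment 1 was higher and 1 lower by edgeR. Pearson's r with the members' mean scaled profile over the 6 libraries was at least 0.8 in 6 of the 10 (0.818 to 0.996). It was 0.132 to 0.451 in the other 4, which were Gbp9, Gm4070, 9930111J21Rik2 and Irgq. Not all of the first 6 kept the members' order of libraries. In Gm4951, control 1 (1.75 CPM) was above control 2 (1.69 CPM). In F830016B08Rik, control 1 (0.542 CPM) was below inhibition 1 (1.54 CPM). Gbp9 stood at 5.04, 6.602 and 5.33 CPM in the inhibition grafts and 2.59, 9.42 and 3.14 CPM in the control grafts, with control 1 the lowest library. Tgtp2 stood at 1.47, 3.22 and 1.24 CPM in the inhibition grafts and 11.8, 23.5 and 0.435 CPM in the control grafts, and Gbp4 at 2.94, 3.84 and 1.52 CPM in the inhibition grafts, against 9.28, 18.1 and 0.918 CPM in the control grafts. Both repeated the order seen in Gbp2, with control 2 highest and control 3 lowest. Gm12250, annotated as a pseudogene although its locus is also known as Irgb10, stood at 1.05, 2.10 and 0.904 CPM in inhibition grafts and 6.57, 7.80 and 0.870 CPM in control grafts. The 2 genes of this list with the smallest p were 9930111J21Rik2 (log2 fold change 1.06, adjusted p = 0.242) and Irgq, an IRG-like gene (-0.27, 0.261), neither of which passed.

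The 8 non-members closest to the members' mean scaled profile over the 6 libraries were Gbp4, Gbp6, Tgtp2, Nmi, Agbl3, Klf6, Zfp960 and Chm, with Pearson's r from 0.996 to 0.964. They were picked from all tested genes of at least 1 CPM over only 6 libraries, so the values are a description. The first 3 are of the same families. Nmi, which interferon also induces, varied far less than the members and stood at 17.7, 16.5 and 14.2 CPM in inhibition grafts and 18.8, 23.7 and 13.0 CPM in control grafts.

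Upstream of the members, the genes for the interferon gamma receptor chains hardly varied. Ifngr1 stood at 30.2, 38.0 and 34.8 CPM in the inhibition grafts and 37.2, 35.9 and 34.4 CPM in the control grafts, and Ifngr2 at 85.5, 76.2 and 78.0 CPM in the inhibition grafts, against 76.2, 71.1 and 75.0 CPM in the control grafts. The groups did not overlap in Ifngr2, which did not pass the test (adjusted p = 0.503). Ifng itself was close to the detection limit, with 1, 2 and 0 counts in the inhibition grafts and 0, 3 and 0 in the control grafts, and did not pass the filter. Irf1, an interferon-induced transcription factor that drives many GBPs, stood at 9.59, 13.5 and 11.0 CPM in the inhibition grafts and 24.0, 35.4 and 10.0045 CPM in the control grafts (log2 fold change -1.02, adjusted p = 0.362). In Irf1, control 1 and control 2 were above every inhibition graft, as in most members. Control 3, however, lay within the range of the inhibition grafts, not below it. The log2 fold change was 0.038 for Irf8 (adjusted p = 0.958) and 0.35 for Socs1 (0.649). Of 17 tested genes of the pathway, 6 were positive and 11 negative (median -0.048); both tools called 0, and 2 were lower before adjustment, Jak2 (-0.28, adjusted p = 0.226) and Socs3 (-0.29, 0.255).

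Most other targets of interferon gamma leaned the same way, with a smaller median log2 fold change. Of 24 tested, 18 were negative and 6 positive, with a median of -0.25. The positive ones were H2-Ab1 (0.84), Cd74 (0.62), H2-Aa (0.51), Ciita (0.48), Icam1 (0.19) and B2m (0.012). Both edgeR and DESeq2 called 0, and 0 passed at an unadjusted p under 0.05. Psme1 (-0.36) and Psme2 (-0.52), activators of the proteasome, had the smallest p. The chemokine gene Cxcl9 stood at 6.30, 4.15 and 2.81 CPM in inhibition grafts and 6.51, 21.2 and 0.628 CPM in control grafts, and Cxcl10 at 18.1, 16.4 and 17.6 CPM in inhibition grafts, against 25.9, 30.2 and 12.1 CPM in control grafts. In both, control 2 was highest and control 3 lowest. Genes stimulated by type I interferon leaned the other way, 19 of 24 being positive, with a median of 0.30 and 0 called by edgeR or DESeq2 (0 also at an unadjusted p under 0.05); the smallest p were those of Oas3 (1.40, adjusted p = 0.353) and Mx1 (0.85, 0.369). Their summed level was 450, 364 and 245 CPM in the inhibition grafts and 251, 475 and 213 CPM in the control grafts, so that control 1, high for the GTPases (224 CPM summed over the 10), stood near inhibition 3 for this list. The GTPases summed to 110, 113 and 71.5 CPM in the inhibition grafts and to 398 and 49.1 CPM in control 2 and control 3.

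**Figure D5:**
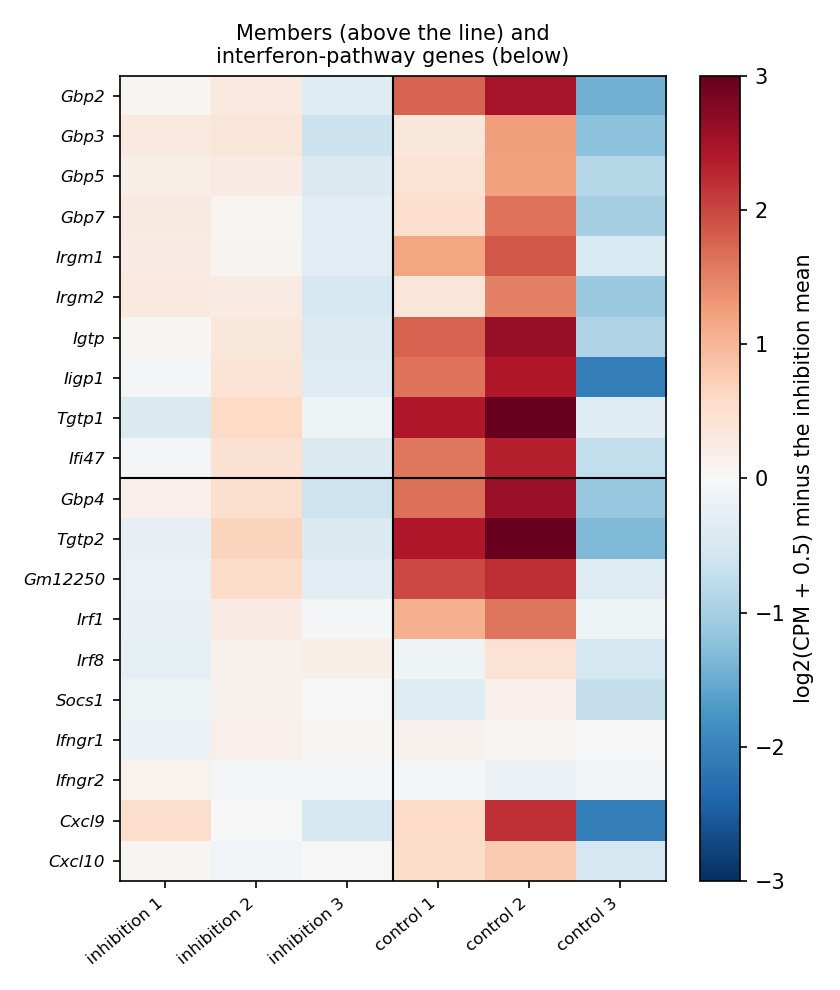
Log2(CPM + 0.5) of the members (above the horizontal line) and of family and pathway genes (below) in each library, less the mean of the 3 inhibition libraries; colours saturate at 3. Control 2 is the darkest red and control 3 is blue in the members, Gbp4, Tgtp2 and Cxcl9, control 1 ranges from pale to dark red, and the rows of Ifngr1 and Ifngr2 stay near white.

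Genes that work with the GTPases were tallied in the same way. Of 14 tested genes for autophagy and vacuole targeting, 4 were positive and 10 negative; edgeR called 0 (1 lower before adjustment) and DESeq2 found 1 lower, the ubiquitin adaptor Sqstm1 (edgeR log2 fold change -0.29, adjusted p = 0.186). The second smallest p was that of Atg3 (0.22, 0.327). Of 8 inflammasome genes that GBPs act on or that share their pathway, 4 were positive and 4 negative. By edgeR, 0 were called (1 higher and 2 lower before adjustment). DESeq2 found 2 lower, Il1b (DESeq2 adjusted p = 0.000467) and Nlrp3 (0.0474). The same genes led in edgeR, Il1b with a log2 fold change of -2.88 (adjusted p = 0.166) and Nlrp3 with -1.71 (0.204). Over all genes, DESeq2 called 1.30% lower and edgeR called 0.0383%. Before adjustment, edgeR had 8.36% of tested genes higher and 7.00% lower.

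Marker genes of other cell types were summed for each library. The 13 T cell markers summed to 3.15, 2.66 and 3.05 CPM in the inhibition grafts and to 1.51, 5.20 and 1.55 CPM in the control grafts. The 10 markers of natural killer and cytotoxic cells summed to 6.58, 4.20 and 4.14 CPM in the inhibition grafts, against 4.88, 9.88 and 3.58 CPM in the control grafts. Both sums were highest in control 2, and that of natural killer and cytotoxic cells was lowest in control 3, as in 9 members. In control 1 the T cell sum was the lowest of the 6 libraries. Among the cytotoxic markers, the granule protease gene Gzmb, named after its values were seen, had 11, 4 and 6 counts in inhibition grafts and 5, 51 and 3 in control grafts. Gzmb alone made up 3.31 of the 9.88 CPM in control 2. Not all markers of that list peaked there. Ncr1 had 2, 3 and 1 counts in inhibition grafts and 0 in each control graft. Klrb1c had 2, 1 and 5 counts in inhibition grafts and 0, 0 and 5 in control grafts. No marker of either list was at 0 in all 6 libraries, and 1 gene of each, Cd5 and Ccl5, passed the filter. Dendritic cell markers summed to 17.4, 18.8 and 16.3 CPM in the inhibition grafts and 14.2, 19.4 and 13.6 CPM in the control grafts. This sum was highest in control 2, though only a little above inhibition 2, and lowest in control 3. Most dendritic markers did not peak in control 2. Flt3, Itgax and Ccr7 did, while Batf3 was highest in control 3. Zbtb46, Cd209a, Xcr1, Clec9a and Siglech were highest in an inhibition graft. Macrophage markers summed to 388 to 462 CPM in inhibition grafts and 254 to 419 CPM in control grafts. Of these 14, DESeq2 called 1 higher and 1 lower (0 by edgeR, 2 higher and 1 lower before adjustment). Neutrophil markers summed to 8.89, 9.88 and 31.3 CPM in the inhibition grafts and 97.7, 37.9 and 74.1 CPM in the control grafts. Of the 9 tested, DESeq2 called 3 lower (0 by edgeR, 5 before adjustment). Muscle markers summed to 2238 to 3758 CPM in inhibition grafts and 819 to 1806 CPM in control grafts, and epithelial markers to 1647 to 5008 CPM in inhibition grafts and 1303 to 2841 CPM in control grafts. DESeq2 called 5 of the 12 muscle markers higher (0 by edgeR, 8 before adjustment). It called 1 of the 12 epithelial markers higher (0 by edgeR, 3 before adjustment). Fibroblast markers summed to 1636, 1530 and 1268 CPM in the inhibition grafts and 722, 1058 and 1075 CPM in the control grafts, and 4 of the 10 were called higher by DESeq2 (0 by edgeR, 8 before adjustment). Endothelial markers summed to 360, 318 and 350 CPM in the inhibition grafts and 168, 289 and 277 CPM in the control grafts, and DESeq2 called 2 of the 10 higher (0 by edgeR, 5 before adjustment). In the T cell, natural killer and dendritic lists both tools called 0. Over all genes, DESeq2 called 2.37% higher and 1.30% lower, and edgeR called 0.0383%. Before adjustment, 8.36% of tested genes were higher and 7.00% lower. The part of these cells in the levels of the GTPases and of the inflammasome genes was not tested.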

How the data were processed

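The authors deposited 1 table of whole-number read counts with Ensembl gene IDs in rows and the 6 libraries in columns; totals differ between columns, so no scaling had been applied. The build mm10 and the aligner HISAT2 2.0 are named per the submitters' processing notes. Strand setting, gene annotation and counting software are not given in the sources used here, so reads of overlapping genes and near copies may be split in unknown ways. Columns were assigned by name (those of the inhibition group speak of nociceptive denervation), and 0 columns were left unused. Of 55487 gene IDs, 55141 matched a symbol; positions and exon lengths are from GENCODE M21.

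The filterByExpr filter, given the groups (count minimum 10, total minimum 15), left 15666 genes, which were TMM-scaled. Inhibition was set against control, 3 libraries each, with edgeR 4.0.16 in R 4.3.3 (quasi-likelihood F-test), Benjamini-Hochberg adjusted over all genes, called at an adjusted p under 0.05; the standard error is the absolute log2 fold change over the square root of F. CPM values are TMM-scaled, 1 count being worth 0.0476 to 0.0700 CPM; log2 CPM used a prior count of 2. Between any 2 libraries the chi-square over its degrees of freedom was 5.64 to 27.2, so none was a repeat.

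The members and lists were chosen with earlier results of these data known. All members are named; of each pathway and family list, the 2 genes with the smallest p and a few preset genes, 1 of which is not reported here. Marker lists are given by their summed level. Profile likeness is the correlation with the mean scaled log2 CPM of the members, among tested genes of at least 1 CPM that carry no predicted-gene name. Alternatives were RLE and upper-quartile factors, tongue genes left out before scaling, no filter and a stricter filter, DESeq2 1.42.0, limma-voom (limma 3.58.1), a block for the replicate number, leaving out single libraries, and an adjusted p under 0.1. On simulated counts of this comparison (15434 genes tested) the fit recovered 73.7% of 99 genes changed 2-fold and 92.6% of 95 changed 4-fold, and called 17 of 15240 unchanged genes. The changed genes were drawn at random from all tested genes, each with its own spread. These shares therefore do not apply to the members, whose log2 fold changes had standard errors of 0.60 (Gbp5) to 1.20 (Tgtp1).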

Additional observations from a re-analysis of the deposited data

How the results depend on the processing

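No member was called (0 of 10) under any alternative, by edgeR, DESeq2 or limma-voom. At an unadjusted p under 0.05 there were 0 to 2 members lower with all 6 libraries under the main test, DESeq2, limma-voom, no filter and the replicate block and 8 without control 3. The members' median log2 fold change of -1.34 stayed negative everywhere, between -1.84 (without control 3) and -0.66 (without control 2) with a library left out, and was -0.56 with limma-voom, -0.91 with the replicate block and -1.14 with the stricter filter, which dropped Tgtp1. Without control 2 the sign turned in Gbp3 (0.32), Gbp5 (0.12), Gbp7 (0.084) and Irgm2 (0.24), against -0.84, -1.02, -1.20 and -1.03 without control 3. The number of genes called among all tested was 6; it was 1187 with no filter, 541 with DESeq2, 0 with limma-voom (before adjustment 1366 higher, 1064 lower), 14 with the replicate block, 33 at an adjusted p under 0.1, and 0 to 217 with a library left out, 0 being reached without control 3, inhibition 1 or inhibition 2 (before adjustment 1094 higher and 1094 lower without control 3, 770 and 655 without inhibition 1, 772 and 933 without inhibition 2). The median SD of log2 CPM of the members was 0.61 to 2.16 in the control grafts and 0.17 to 0.58 in the inhibition grafts when a library of that group was left out, the lowest values being those without control 3 and without inhibition 3. The shared replicate numbers gave no clear pairing: same-numbered samples deviated from their group means with correlations of -0.18, 0.33 and 0.087 across genes. Not every sample correlated best with its own number, although 0.33, for the samples numbered 2, was the highest correlation of any pair. Deviations from means of 3 samples are linked to each other, so this check cannot decide whether samples were paired. The cause of these shifts was not tested. With 3 libraries per group, an exact permutation test of 1 value cannot go below p = 0.1.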
